A study of Mus musculus with 4 samples.

Results

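The 8 genes described here encode transcription factors of follicle formation and oocyte growth, germ cell variants of the general initiation machinery, and the general factor TBP. They were taken by symbol from the deposited count table, which held all 8 of them among 55453 genes: Figla, Nobox, Sohlh1, Sohlh2, Lhx8, Taf4b, Tbpl2 and Tbp. The libraries were 2 from Parp12 knockdown oocytes and 2 from control oocytes labelled WT, all from mouse oocytes at the germinal vesicle stage separated directly from the ovary. Parp12 encodes an ADP-ribosyltransferase, and the comparison is of oocyte RNA with and without its knockdown. The sources used here do not state the age or strain of the animals, any pooling or how the knockdown was made.

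In the mouse ovary, FIGLA, SOHLH1 and SOHLH2 are basic helix-loop-helix (bHLH) proteins that bind E-box elements, and FIGLA with an E-protein partner activates the zona pellucida genes. NOBOX is a homeodomain protein and LHX8 a LIM homeodomain protein; primordial follicles form but do not grow properly when either is lost. SOHLH1 and SOHLH2 act early, around primordial follicles, upstream of Lhx8 and Nobox. TBP is the TATA-binding subunit of the general factor TFIID, TBPL2 takes its place in growing mouse oocytes, and TAF4B is the gonad-enriched relative of the TFIID subunit TAF4.

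The promoter windows of 5 members are shown because E-boxes are the elements that FIGLA, SOHLH1 and SOHLH2 bind, and the windows differ in how many they hold. Each window is the 250 bases before a RefSeq transcript start in GRCm38.p6, written 5′ to 3′ on the gene's strand, with every CANNTG (E-box, which reads alike on both strands) in capitals. Figla lies at chr6:86016941-86017190 on the plus strand, Nobox at chr6:43309555-43309804 on the minus strand, Sohlh1 at chr2:25847249-25847498 on the minus strand, Tbpl2 at chr2:24096596-24096845 on the minus strand and Tbp at chr17:15499638-15499887 on the plus strand.
Figla: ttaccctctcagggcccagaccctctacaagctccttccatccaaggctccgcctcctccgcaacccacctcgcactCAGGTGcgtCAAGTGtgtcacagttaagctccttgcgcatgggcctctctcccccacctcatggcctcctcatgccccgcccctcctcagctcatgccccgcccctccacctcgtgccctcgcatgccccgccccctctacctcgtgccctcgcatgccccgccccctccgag
Nobox: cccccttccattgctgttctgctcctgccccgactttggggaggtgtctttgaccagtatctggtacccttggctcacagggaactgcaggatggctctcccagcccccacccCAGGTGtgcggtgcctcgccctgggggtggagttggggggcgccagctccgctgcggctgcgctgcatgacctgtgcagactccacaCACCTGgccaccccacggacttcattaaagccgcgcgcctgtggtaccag
Sohlh1: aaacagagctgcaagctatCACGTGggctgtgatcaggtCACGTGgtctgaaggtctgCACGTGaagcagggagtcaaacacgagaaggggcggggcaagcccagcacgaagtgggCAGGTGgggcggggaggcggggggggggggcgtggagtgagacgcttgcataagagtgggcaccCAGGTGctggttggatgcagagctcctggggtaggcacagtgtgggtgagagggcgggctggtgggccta
Tbpl2: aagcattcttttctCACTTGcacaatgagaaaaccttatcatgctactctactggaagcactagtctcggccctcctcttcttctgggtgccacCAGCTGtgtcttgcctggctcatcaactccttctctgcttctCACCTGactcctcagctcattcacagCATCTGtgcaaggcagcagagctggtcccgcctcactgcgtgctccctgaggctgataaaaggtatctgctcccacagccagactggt
Tbp: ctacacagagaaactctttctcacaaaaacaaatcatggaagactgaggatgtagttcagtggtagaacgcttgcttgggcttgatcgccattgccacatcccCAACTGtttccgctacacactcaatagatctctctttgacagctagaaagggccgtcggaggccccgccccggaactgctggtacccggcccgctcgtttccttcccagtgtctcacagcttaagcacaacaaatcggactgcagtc
Of the 8 members, 7 matched an entry in the RefSeq promoter table, and those of Sohlh2 and Lhx8 are not shown because they overlap annotated exons. Taf4b is named only. For Figla and Nobox, other annotated transcripts begin farther upstream than the window shown. The Sohlh1 window held 5 E-boxes, of which 3 read CACGTG, and they began 231, 211 and 192 bases before the start. Of 32841 RefSeq promoter windows of the same length, 66.2% held a CANNTG, 6.02% held a CACGTG and 20 windows (0.0609%) held at least 3 CACGTG. The Figla and Nobox windows held 2 E-boxes each, the Tbpl2 window 4 and the Tbp window 1. Over all windows the median was 1 CANNTG, and 12.2% held 3 or more. Neither TATAAA, present in 12.4% of all windows on either strand, nor TAATTA or TAATTG, present in 11.3%, was found in any of the 7 windows. These letter matches are descriptions, and no binding was measured.

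The libraries held 42576499 and 35805122 counts for the Parp12 knockdown, and 45230773 and 40938363 for the control. Parp12 itself had 32 and 86 counts in knockdown oocytes, against 14279 and 9419 in control oocytes (log2 fold change -7.51, SE 0.34, adjusted p = 1.27e-07 by edgeR's quasi-likelihood test), in the direction the labels give. All 12 listed oocyte markers were measured, and they summed to 2.73% and 2.79% of the counts in knockdown libraries and 2.59% and 2.67% in control libraries. Of 17 granulosa and cumulus markers, 8 were at 0 in all 4 libraries, among them the defining Amh and Foxl2, and the list summed to 43.8 and 46.2 CPM (counts per 1000000 counts of a library) in knockdown libraries and 49.5 and 53.3 CPM in control libraries. Cyp19a1 and Kitl made up most of that sum. Cyp19a1 had 26.7 and 23.8 CPM in knockdown and 24.7 and 29.3 CPM in control libraries. Kitl had 15.3 and 13.7 CPM in knockdown and 21.6 and 18.1 CPM in control libraries. Theca and stroma markers (2 of 10 at 0 throughout) summed to between 2.58 and 6.45 CPM, and blood and immune markers (2 of 6 at 0 throughout) to between 0.486 and 3.05 CPM. The labels do not say whether replicates were separate animals or collections. The p-values therefore cover the spread between these 4 libraries, which may be technical.

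None of the 8 genes passed the test between Parp12 knockdown and control oocytes. All 8 passed the filter on low counts, and edgeR called 0 of them at an adjusted p under 0.05, where it called 1 of 15868 genes (0.00630%), which was Parp12. At an unadjusted p under 0.05 it also listed 0 of the 8, against 5.51% of all tested genes, and DESeq2, which called 1.86% of the genes it tested, called 0 of the 8 and listed 1 (Figla) at that unadjusted limit, where it listed 10.2% of all genes with a p. The log2 fold changes, knockdown over control, had a median of -0.02 over the members and 0.00 over all tested genes, with 4 members above 0 and 4 below. The groups did not overlap for 3 of the 8, against 34.9% of all tested genes. Both knockdown libraries lay below both controls for these 3 members (Figla, Sohlh2 and Lhx8) and above both for 0, where 16.8% of all tested genes lay below and 18.0% above. The 95% interval kept within a 2-fold change for 4 members (Nobox, Lhx8, Taf4b and Tbp), which also kept within a 1.5-fold change. Of all tested genes, 46.7% kept within 2-fold and 28.8% within 1.5-fold, and 2426 of the 2427 over 100 CPM kept within 2-fold. In bulk libraries, fewer cells of a type and less RNA per cell cannot be told apart.

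**Figure D1:**
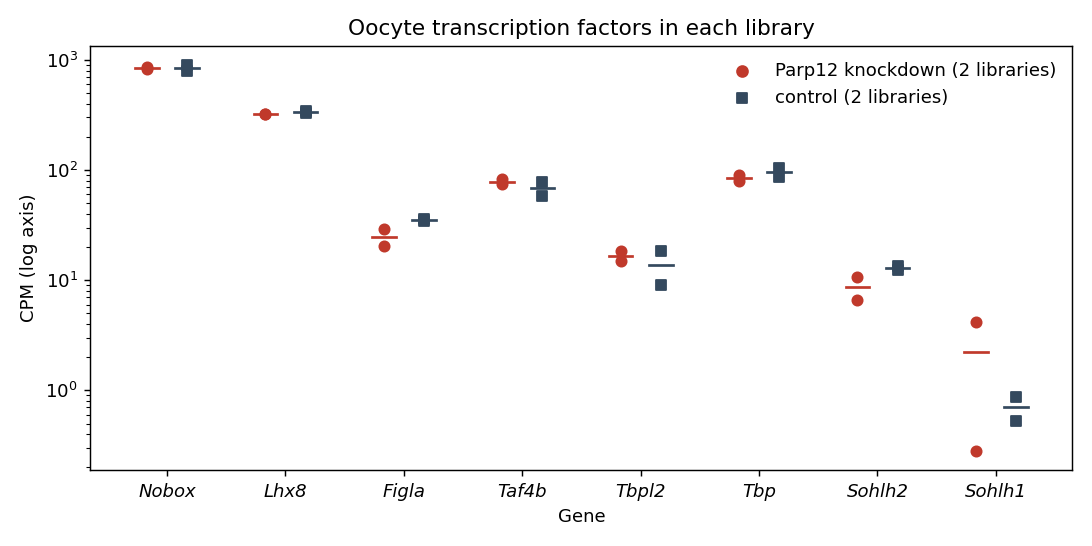
CPM of the 8 genes on a log axis, with the 2 Parp12 knockdown libraries as red circles left of the 2 control libraries as dark squares, and a bar at each group's mean. Nobox and Lhx8 keep close to the same level in all libraries, Figla and Sohlh2 are lower in both knockdown libraries, and Sohlh1 is spread from 0.282 to 4.19 CPM.

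The homeodomain genes were the most abundant of the 8 and, over the 4 libraries together, the most even. Nobox (chromosome 6, 43303674 to 43309554, minus strand, mm10) had 35417 and 30695 counts, or 832 and 857 CPM, in knockdown oocytes, against 35608 and 36577 counts, or 787 and 893 CPM, in control oocytes. The knockdown libraries lay between the controls, and Nobox ranked 125th of all genes by mean CPM. Its log2 fold change was 0.01 (SE 0.07, 95% interval -0.14 to 0.16). Lhx8 (chromosome 3, 154306294 to 154330659, minus strand) had 13856 and 11606 counts in knockdown oocytes, against 14861 and 14057 in control oocytes. Its levels were 325 and 324 CPM in the knockdown libraries, just below 329 and 343 CPM in the controls, with a log2 fold change of -0.05 (SE 0.08, 95% interval -0.22 to 0.12). The knockdown libraries differed in Lhx8 by 0.01 and the controls by 0.06 on the log2 scale. In Nobox the knockdown libraries differed by 0.04 and the controls by 0.18. The median gene over 100 CPM differed by 0.10 within each group.

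The bHLH genes were lower and, over the 4 libraries together, more uneven. Replicates differed more at lower levels in all tested genes. Between 10 and 100 CPM the median gene differed by 0.22 (knockdown) and 0.24 (control) on the log2 scale. Between 1 and 10 CPM it differed by 0.71 and 0.73. Figla (chromosome 6, 86016171 to 86020996, plus strand) had 1242 and 726 counts, or 29.2 and 20.3 CPM, in knockdown oocytes, against 1555 and 1461 counts, or 34.4 and 35.7 CPM, in control oocytes. Both knockdown libraries were below both controls, and they differed from each other by 0.52 on the log2 scale where the controls differed by 0.05. The fitted change in Figla was -0.48 on the log2 scale (SE 0.24, 95% interval -1.0 to 0.03). Under edgeR's quasi-likelihood test p was 0.0636 unadjusted and 0.835 adjusted. Figla was the member with the smallest p, and without knockdown replicate 2 its log2 fold change was -0.27, against -0.79 without knockdown replicate 1.

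Sohlh2 (chromosome 3, 55182028 to 55209957, plus strand) had 282 and 384 counts, or 6.62 and 10.7 CPM, in knockdown oocytes, against 604 and 509 counts, or 13.4 and 12.4 CPM, in control oocytes. The groups did not overlap, and the fitted log2 change was -0.60 (SE 0.39, 95% interval -1.45 to 0.24, adjusted p = 0.861 by edgeR's quasi-likelihood test). It was -0.27 without knockdown replicate 1 and -0.97 without knockdown replicate 2. Sohlh1 (chromosome 2, 25842995 to 25847248, minus strand) had 12 and 150 counts in knockdown oocytes, against 24 and 36 in control oocytes. Knockdown replicate 2 was the highest of the 4 libraries and knockdown replicate 1 the lowest. The log2 fold change of 1.56 had an SE of 1.21, and it became -1.30 without knockdown replicate 2, so no direction can be read for Sohlh1 at this depth.

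**Figure D2:**
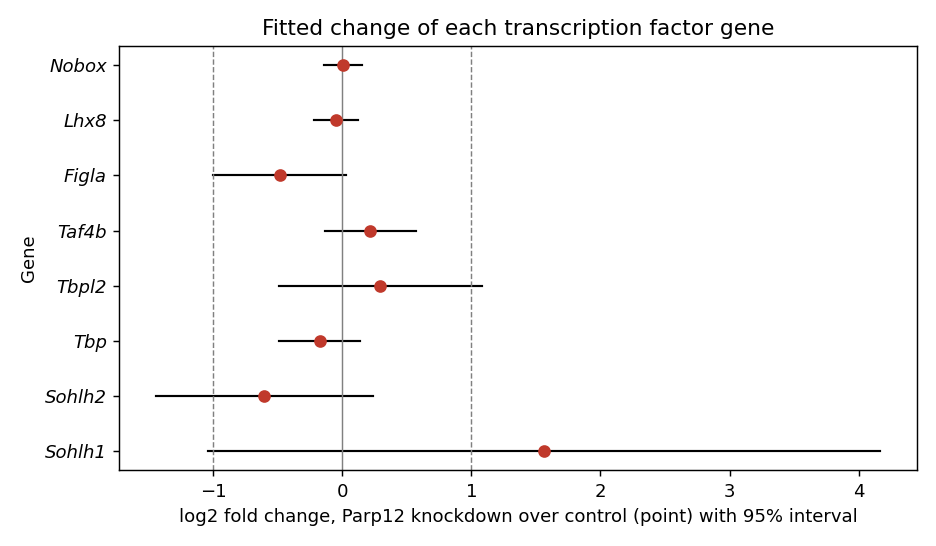
Fitted log2 fold change of each gene, Parp12 knockdown over control, as a point with its 95% interval; the solid line marks 0 and the dashed lines a 2-fold change in either direction. All intervals include 0, and those of Nobox, Lhx8, Taf4b and Tbp stay within the dashed lines.

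The germ cell variants of the initiation machinery had mean levels below those of Nobox and Lhx8 and above those of Sohlh2 and Sohlh1. Figla, with a mean of 29.9 CPM, lay between Taf4b (73.2 CPM) and Tbpl2 (15.2 CPM), and above both per length. Taf4b (chromosome 18, 14783245 to 14900359, plus strand) had 3520 and 2658 counts, or 82.7 and 74.2 CPM, in knockdown oocytes, against 2640 and 3175 counts, or 58.4 and 77.6 CPM, in control oocytes. The groups overlapped, and the fitted log2 change was 0.22 (SE 0.16, 95% interval -0.13 to 0.57). Without control replicate 1, the lowest library, it was 0.03. Tbpl2 (chromosome 2, 24071721 to 24096595, minus strand) had 635 and 659 counts, or 14.9 and 18.4 CPM, in knockdown oocytes, against 412 and 746 counts, or 9.11 and 18.2 CPM, in control oocytes. The controls differed by 1.0 on the log2 scale, where the median gene between 10 and 100 CPM differed by 0.24, and the fitted log2 change was 0.29 (SE 0.36, 95% interval -0.49 to 1.08). It was -0.13 without control replicate 1 and 0.84 without control replicate 2.

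Tbp (chromosome 17, 15499888 to 15528379, plus strand) had 3858 and 2833 counts, or 90.6 and 79.1 CPM, in knockdown oocytes, against 4756 and 3540 counts, or 105 and 86.5 CPM, in control oocytes. The groups overlapped, with a log2 fold change of -0.18 (SE 0.15, 95% interval -0.49 to 0.14). The Tbp row was counted over 13576 exonic nucleotides, of which 10952 (80.7%) lie outside the RefSeq gene, which ends at 15517427. Its exons cover all 2582 exonic nucleotides of Pdcd2 on the other strand, and Pdcd2 is listed at 0 in all 4 libraries. Of the 50-nucleotide stretches of its annotated transcripts, 16.3% also occur in transcripts of 24 other genes, against 0% for its first annotated transcript alone and 0% for each of the other 7 members. The treatment of strand and of shared reads in counting is not stated, and the part of these overlaps in the Tbp values was not tested.

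Per length, the 8 genes spanned more than 2 orders of magnitude. RPKM here is CPM per kilobase of the summed exon length in the table. The mean over the 4 libraries was 419 RPKM for Nobox, 130 for Lhx8, 35.7 for Figla, 14.2 for Taf4b, 11.0 for Tbpl2, 6.65 for Tbp, 4.56 for Sohlh2 and 1.14 for Sohlh1. Neighbours in this order overlapped in their ranges over the 4 libraries for Taf4b and Tbpl2, for Tbpl2 and Tbp, and for Sohlh2 and Sohlh1. Within each of the 4 libraries, Taf4b was above Tbpl2 and Sohlh2 above Sohlh1. The ratio of Sohlh2 to Sohlh1 ran from 1.40 to 13.7. Tbp was above Tbpl2 in control replicate 1 and below it in the other libraries. With only the exon length inside the RefSeq gene, and the same counts, Tbp averaged 34.4 RPKM, ranging from 30.2 to 40.1, and moved up to overlap Figla, which averaged 39.4 RPKM. The counts still include any reads from exons outside the RefSeq gene, which would make 34.4 RPKM too high for that length. A shorter transcript or reads lost in counting would make it too low, so it is not a bound.

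**Figure D3:**
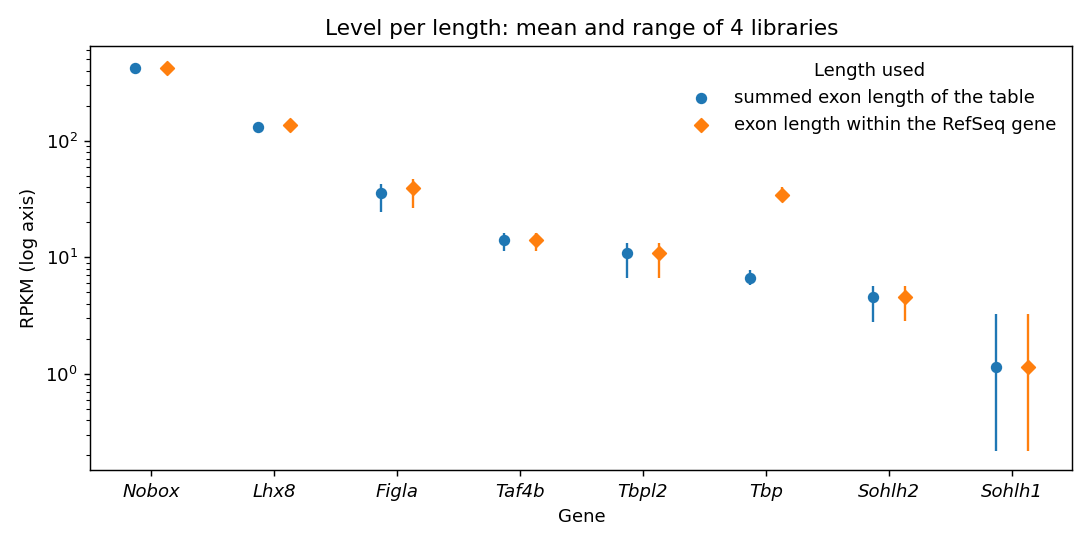
Mean level per length (RPKM, log axis) of each gene over the 4 libraries, with a line from the lowest to the highest library, using the summed exon length of the table (blue circles) or only the exon length inside the RefSeq gene (orange diamonds). Tbp moves from position 6 to position 4, with 6.65 and 34.4 RPKM, and Figla, at 35.7 and 39.4 RPKM, stays at position 3.

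The order of Tbp and its oocyte variant therefore turned on the length. The ratio of Tbp to Tbpl2 in RPKM was 0.617 and 0.437 in knockdown libraries, against 1.17 and 0.482 in control libraries. The ratios with the same counts over the exon length inside the RefSeq genes were 3.19 and 2.26 in knockdown libraries. In control libraries they were 6.07 and 2.49. Tbp was then the higher of the pair in all 4, with any reads from outside its RefSeq gene still counted. Taf4b was above Taf4, the general subunit, in all 4 libraries. The exons of both lie wholly inside their RefSeq genes, so the choice of length cannot change this ratio. The ratio of Taf4b to Taf4 in RPKM was 2.51 and 2.57 in knockdown libraries, against 1.42 and 2.0 in control libraries. Both knockdown libraries lay above both controls, and the difference was not tested. An exact permutation test over the 6 arrangements of the 4 libraries could not give a p below 0.333.

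By level per length over the 4 libraries, the gene closest to each member outside the lists was Klhl8 for Nobox (423 RPKM), Mospd1 for Lhx8 (132 RPKM), Mrps21 for Figla (37.3 RPKM), Lmbr1 for Taf4b (14.2 RPKM), Dppa4 for Tbpl2 (10.8 RPKM), Sqle for Tbp (6.77 RPKM), Ccsap for Sohlh2 (4.67 RPKM) and A4galt for Sohlh1 (0.998 RPKM). Candidates were the 13084 tested genes outside the lists whose symbols did not start with Gm or end with Rik. The likeness was the root mean square difference in log2(RPKM + 0.1), which ran from 0.03 for Tbp to 0.29 for Sohlh1. The match for Tbp rests on its summed exon length, and none was sought with the length inside the RefSeq gene.

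The machinery around the members was likewise without a call. Of 15 TFIID subunit genes, 14 were tested. edgeR called 0, against 0.00630% of all tested genes, and listed 0 at an unadjusted p under 0.05, against 5.51%. The median log2 change was 0.00, and 13 intervals kept within a 2-fold change, against 46.7% of all tested genes. Taf8 and Taf4 had the smallest p in the list. Taf8, a histone-fold subunit, had 103 ± 0.696 CPM in knockdown and 122 ± 0.0904 CPM in control oocytes (SD, n = 2 each), and Taf4 had 27.7 ± 2.60 CPM in knockdown and 35.8 ± 1.45 CPM in control oocytes, with both knockdown libraries below both controls for each. Of the 14 tested, 4 lay below in this way and 3 above, where 16.8% and 18.0% of all tested genes did. Taf9b, a paralog of Taf9, had the highest level per length, with 66.6 and 69.7 RPKM in knockdown libraries, against 72.9 and 65.6 RPKM in control libraries. Taf9, named after its values were seen, had 73 and 0 counts in knockdown libraries, against 6 and 17 in control libraries. It shares 73.8% of its exonic length with Ak6 on the same strand, so its low counts are uncertain.

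Of 22 other initiation factors of RNA polymerase II, all 22 were tested. edgeR called 0 and listed 1, higher, at an unadjusted p under 0.05, where 2.94% of all tested genes were listed higher and 2.57% lower; the median log2 change was -0.07, with 8 genes above 0 and 14 below. Gtf2e2, a TFIIE subunit, had 97.8 ± 11.5 CPM in knockdown and 74.7 ± 2.98 CPM in control oocytes (SD, n = 2 each), a log2 change of 0.40 (edgeR adjusted p 0.835). Gtf2f1, a TFIIF subunit, had 164 ± 4.07 CPM in knockdown and 188 ± 4.09 CPM in control oocytes. Drap1, a repressor subunit that binds TBP complexes, had the highest level per length of the list, with 267 ± 3.39 CPM in knockdown and 282 ± 3.05 CPM in control oocytes. Gtf2a1l, the germ cell variant of the TFIIA large subunit and named after its values were seen, had 69.9 and 71.8 RPKM in knockdown libraries, against 67.7 and 75.9 RPKM in control libraries, while Gtf2a1 had 4.38 and 3.59 RPKM in knockdown libraries, against 5.99 and 3.94 RPKM in control libraries.

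The bHLH partners and inhibitors list had 6 tested genes of 7, with a median log2 change of -0.05. By edgeR 0 were called and 0 listed at an unadjusted p under 0.05, against 0.00630% and 5.51% of all tested genes. Tcf3, which encodes the E-proteins that pair with FIGLA, had 20.4 and 20.4 RPKM in knockdown libraries, against 21.5 and 20.6 RPKM in control libraries. Tcf4 had 149 and 100 counts in knockdown libraries, against 219 and 242 in control libraries, and Id1, an inhibitor of bHLH dimers, had 43 and 18, against 1 and 28. Tcf3 was thus even across libraries, while Tcf4 and Id1 rested on few counts. Among 15 tested of 16 other transcription factors of oocyte growth, edgeR called 0 and listed 3, all lower, at an unadjusted p under 0.05, against 2.57% of all tested genes listed lower; the median log2 change was -0.07. Foxo3, which holds primordial follicles at rest, had 263 ± 2.92 CPM in knockdown and 309 ± 27.6 CPM in control oocytes (SD, n = 2 each), and Ldb1, a cofactor of LIM homeodomain proteins, had 117 ± 24.3 CPM in knockdown and 149 ± 2.72 CPM in control oocytes. Both had an edgeR adjusted p of 0.835. Sub1, a transcriptional coactivator, had the highest level per length in this list, with 695 ± 5.71 CPM in knockdown and 631 ± 18.8 CPM in control oocytes.

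Genes known to depend on the members in mouse oocytes were abundant and close between the groups. All 19 were tested, and edgeR called 0 and listed 4 higher and 2 lower at an unadjusted p under 0.05, against 2.94% and 2.57% of all tested genes. All 19 intervals kept within a 1.5-fold change, against 28.8% of all tested genes, which are mostly less abundant. Their median log2 change was 0.08, with 13 above 0 and 6 below. Both knockdown libraries lay above both controls for 7 of the 19 and below both for 2, where 18.0% and 16.8% of all tested genes did. The list summed to 4.91% and 5.07% of the counts in knockdown libraries, against 4.67% and 4.82% in control libraries. Gdf9, which encodes an oocyte growth factor, had the highest level per length, with 2929 and 2979 RPKM in knockdown libraries, against 2731 and 2837 RPKM in control libraries. Zp1, which encodes an egg coat protein and is a target of FIGLA, had a log2 fold change of 0.15 (SE 0.06), and Nlrp14, which encodes an oocyte NLRP protein, one of 0.14 (SE 0.05); the edgeR adjusted p of each was 0.835. Mos, which encodes the kinase that starts the meiotic MAP kinase cascade, had 375 ± 11.6 CPM in knockdown and 431 ± 19.0 CPM in control oocytes (SD, n = 2 each).

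**Figure D4:**
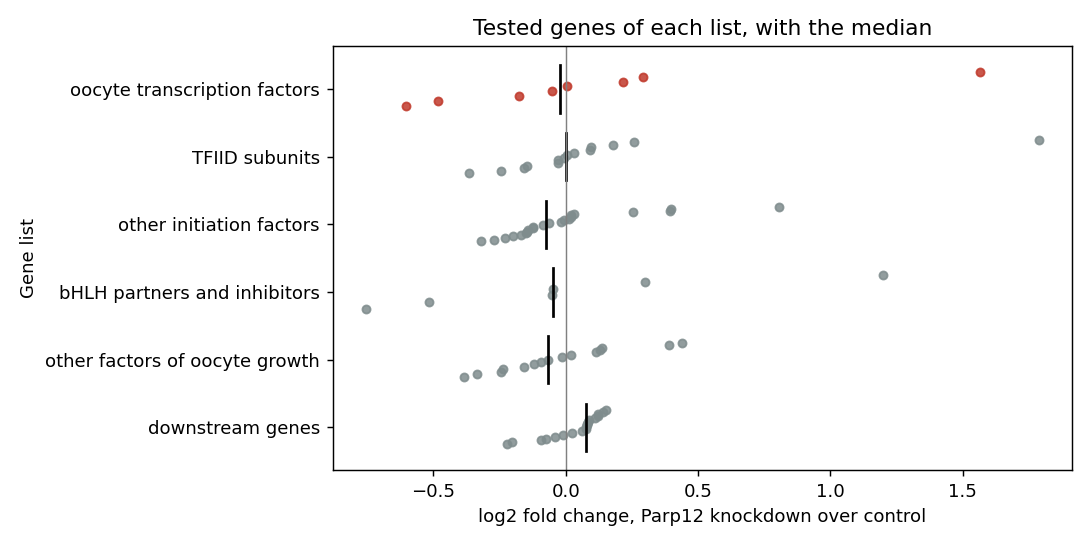
Log2 fold change, Parp12 knockdown over control, of the tested genes of 6 lists (points, spread vertically only to separate them), with a black bar at each list's median. The medians lie between -0.07 and 0.08, and the oocyte transcription factors range from -0.60 for Sohlh2 to 1.56 for Sohlh1.

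Markers of other ovarian cells with the smallest p were Kitl and Gja1 for granulosa cells, Cyp11a1 and Star for theca and Cd68 for immune cells. Cyp11a1, an enzyme of steroid synthesis, had 11 and 5 counts in knockdown libraries, against 70 and 70 in control libraries, and Star, which carries cholesterol into mitochondria, had 10 and 20, against 40 and 135. Cd68 had 130 and 74 counts in knockdown libraries, against 0 and 44 in control libraries. Kitl, the ligand of KIT, had 652 and 492 counts in knockdown libraries, against 976 and 743 in control libraries, and Gja1, a gap junction gene, had 0 and 89, against 18 and 0. Cyp19a1, the granulosa marker with the highest level per length, had 1135 and 851 counts in knockdown libraries, against 1116 and 1199 in control libraries. Of the 4 tested theca and stroma markers, edgeR listed 1 (Cyp11a1, lower) at an unadjusted p under 0.05, against 2.57% of all tested genes. Of all tested genes, 16.8% had both knockdown libraries below both controls and 18.0% above. Among these 4 markers, 2 lay below (Cyp11a1 and Star), 1 above and 1 overlapped. The one above was Pdgfra, a stromal receptor gene named after its values were seen, with 52 and 68 counts in knockdown libraries, against 0 and 19 in control libraries. Of the 5 tested granulosa markers, 1 (Kitl) lay below and 4 overlapped. The part of these cells in the values of the members was not tested.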

How the data were processed

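RNA of mouse oocytes was measured in 4 libraries, grouped by their titles. Raw read counts per gene were deposited by the authors in one table with summed exon lengths, per the file headers. The submitters' processing notes list mm10, featureCounts 2.0.0, STAR 2.7.5b, DESeq2 1.28.1 and Trim Galore 0.6.4, in no stated role. The sources used here do not state how strand, multi-mapping reads or fragments were counted.

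The test was edgeR 4.0.16 under R 4.3.3: filterByExpr (minimum count 10, total 15), TMM factors, glmQLFit (robust, not legacy) and glmQLFTest, two-sided, group as the only term, Benjamini-Hochberg adjustment over 15868 genes. SEs came from the F statistic. Alternatives used DESeq2 1.42.0 and limma 3.58.1, other scaling and filters, a replicate block and leaving out each library. The fit was tested on simulated counts. Replicate pairs differed with a chi-square of 30.0 (knockdown) and 34.7 (control) per degree of freedom, so no library was a copy. Intervals cover the spread between these libraries and counting error only. Coordinates are mm10, which is GRCm38; promoters and RefSeq spans come from GRCm38.p6.

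The members and lists were chosen with earlier results of these data known. Beside the members and Parp12, the text names in each list the 2 genes with the smallest p and the one with the highest RPKM. It also names the gene nearest to each member in level among the candidates described above. Genes named outside these rules were chosen after their values were seen.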

Additional observations from a re-analysis of the deposited data

How the results depend on the processing

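None of the 8 genes was called under any of the 12 alternatives run, of which 4 leave a group with 1 library that is assumed to vary like the other group. Members at an unadjusted p under 0.05 numbered 1 with DESeq2 (Figla; 10.2% of all genes), 1 with limma-voom (Figla; 4.71%), 1 without control replicate 2 (Taf4b; 4.52%), 2 without knockdown replicate 1 (2.83%) and 0 otherwise. Of 95 values of the members under these alternatives, 91 kept their direction and 4 reversed: Nobox at -0.070 without control replicate 1 and -0.02 without knockdown replicate 2, Sohlh1 at -1.30 without knockdown replicate 2 and Tbpl2 at -0.13 without control replicate 1. Leaving out 1 library at a time gave -0.070 to 0.087 for Nobox, -1.30 to 2.58 for Sohlh1 and -0.13 to 0.84 for Tbpl2. Sohlh1 was not tested with a minimum of 1 CPM in both libraries of a group. Over all genes edgeR called 1 as reported and 8 with that minimum, DESeq2 called 305 and limma-voom 0, where Parp12 had an adjusted p of 0.280 (2.32e-47 to 0.280 over its alternatives) and 747 of 15868 genes had an unadjusted p under 0.05. Leaving out 1 library gave between 1 and 2 calls, the 2 without knockdown replicate 1. The deviations of same-numbered libraries had a correlation of 0.015 across genes, which does not tell whether they were collected together. Blocking on the replicate number called 1 gene and 0 members. The legacy quasi-likelihood fit and the lengths inside RefSeq genes were added after seeing the data.

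The order of the 8 genes kept 5 of 8 positions without a length, and likewise 5 of 8 with the exon length inside the RefSeq gene. The median ratio of Tbp to Tbpl2 was 0.550 with the table's length, 5.41 from counts alone and 2.84 with the length inside the RefSeq genes. Here the length assigned to Tbp sets which is higher. At this depth the interval of Sohlh1, with at most 150 counts, spans more than a 2-fold change in both directions.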
